A study of Mus musculus with 6 samples.

Results

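Histones package DNA into nucleosomes, in which paired copies of H2A, H2B, H3 and H4 form the core and H1 binds the linker DNA between cores. Replication-dependent histone genes lie in clusters, mostly without introns, and are transcribed mainly in S phase, when new DNA has to be packaged. Their mRNAs are cut after a short stem-loop that is bound by SLBP, and as a rule they carry no poly(A) tail, whereas genes of replication-independent histones lie outside the clusters and give polyadenylated mRNAs in all phases.

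The 65 genes described here are the protein-coding mouse genes in the count files whose GENCODE M21 symbol begins with Hist1h to Hist4h and a histone type, out of 50686 gene identifiers in the files. Of the 67 genes that match this rule in the annotation, Hist1h2bh and Hist1h2bm were not analysed here. The 65 comprised 6 H1, 18 H2A, 16 H2B, 12 H3 and 13 H4 genes, and 52 of them belonged to cluster 1 on chromosome 13. The rule used names only and no measured value, although earlier results of these data were known when it was chosen.

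RNA sequencing was performed on mouse induced pluripotent stem cells (iPSCs) derived from gingival fibroblasts, with 3 intermittent compressive force (ICF) samples and 3 control samples. All 6 samples were embryoid bodies treated with retinoic acid and then kept on gelatin-coated plates in serum-free medium. ICF was applied at 1.5 g per square centimetre and 0.23 Hz for 24 h, and the control was unloaded. The labels number donors 1 to 3 in each group, and the methods speak of independent experiments. Strain, sex, age and whether the donors were separate cell lines are not given in the sources used here, so p-values measure the spread between these samples. The cells had been grown on SNL feeder cells that were removed by selective trypsinization.

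Between 28711166 and 34194413 reads per sample were assigned to genes. ICF replicate 3 stood apart, because 89% of its nonzero counts were divisible by 4 and only 20802 genes had a count. The corresponding values of the other 5 samples were 20.3% to 21.5% and 24340 to 24889 genes. The same held for the histone genes. All 39 members with a count in ICF replicate 3 were at a multiple of 4, and the other samples had 53 to 57 members with a count. Because this library stands apart, results that rest on it are given with and without it. All 8 genes of a pluripotent cell list were detected in every sample, with a summed level of 3351 to 4043 CPM (TMM-normalized counts at equal library size) in the control and 3031 to 3342 CPM with ICF. All 10 genes of a mesenchymal and fibroblast list were also detected, at 372 to 430 CPM in the control and 447 to 461 CPM with ICF. A neural progenitor list ranged from 49.7 to 52.3 CPM in the control and from 51.7 to 56.1 CPM with ICF. The ranges of an endoderm list were 353 to 371 and 347 to 387 CPM, and those of a blood cell list, in which Hbb-bt was at 0 in all samples, were 16.9 to 18.1 and 16.2 to 22.9 CPM. The part of these lists in the histone results below was not tested.

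The sequence that sets these mRNAs apart is the stem-loop at the 3′ end. A 16-base stem-loop with a 6-base perfect stem and a 4-base loop that began with TT was found behind the stop codon of 42 of the 65 genes in the GENCODE M21 transcripts, starting 21 to 58 bases after the stop codon (median 31.5). The form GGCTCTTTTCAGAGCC was present in 24 of these genes and was the most frequent of the 6 forms found. Below it is shown in capitals, with 5 bases on each side, for genes whose values follow, 5′ to 3′ on the strand of the gene.
Hist1h1c, chr13:23739512-23739527, plus strand: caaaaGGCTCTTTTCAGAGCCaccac
Hist3h2ba, chr11:58949349-58949364, plus strand: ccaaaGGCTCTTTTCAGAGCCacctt
Hist1h2bj, chr13:22043638-22043653, plus strand: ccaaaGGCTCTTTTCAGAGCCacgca
Hist1h3c, chr13:23745047-23745062, minus strand: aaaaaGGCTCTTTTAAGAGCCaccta
Hist1h4i, chr13:22040966-22040981, minus strand: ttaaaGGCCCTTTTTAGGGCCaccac
The coordinates are those of the capitals in GRCm38. The H4 gene in this set had another stem than the rest, and both Hist1h3c and Hist1h4i had another loop. No stem-loop of the searched form was found for Hist1h2bc and Hist2h2be, which says only that these letters were not in the searched transcripts.

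The coding sequences limit what can be counted for each gene. Reads were 75 bases long, and a read that matches several genes equally well was not assigned to a gene, since 14122486 to 16643132 alignments per sample are listed as not unique. For H2A, the 75 coding bases 178 to 252 were identical in 13 of 18 genes. Capitals mark bases that differ from this shared version, and the genes shown are a copy that differs, a copy with the shared version, and a copy that is shared over its whole transcript.
Hist3h2a, chr11:58954915-58954989, plus strand: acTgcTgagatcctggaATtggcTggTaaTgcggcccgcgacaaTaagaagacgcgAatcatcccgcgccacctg
Hist1h2ae, chr13:23570857-23570931, minus strand: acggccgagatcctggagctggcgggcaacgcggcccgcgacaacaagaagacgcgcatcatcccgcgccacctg
Hist2h2aa1, chr3:96245758-96245832, plus strand: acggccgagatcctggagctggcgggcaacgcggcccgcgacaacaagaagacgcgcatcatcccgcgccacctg
Hist3h2a differed from the shared version at 9 bases and had a mean of 52.7 counts per sample, Hist1h2ae had 19.7 and Hist2h2aa1 had 0. These 3 genes are examples, and counts did not follow this window alone. Hist1h2aa, not shown, also differed at 9 bases but had a mean of 0.333 counts, and Hist2h2ab differed at 1 base and had 0.167.
For H4, coding bases 163 to 237 were identical in 10 of 13 genes, Hist1h4i among them, and the window is shown for the gene with most counts and for those that differed.
Hist1h4i, chr13:22041087-22041161, minus strand: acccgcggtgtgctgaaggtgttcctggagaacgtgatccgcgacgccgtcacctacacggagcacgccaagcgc
Hist1h4d, chr13:23581764-23581838, plus strand: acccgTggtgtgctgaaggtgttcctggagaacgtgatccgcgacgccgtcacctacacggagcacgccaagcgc
Hist2h4, chr3:96263068-96263142, minus strand: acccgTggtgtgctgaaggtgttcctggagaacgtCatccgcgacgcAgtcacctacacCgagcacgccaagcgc
Hist4h4, chr6:136804143-136804217, minus strand: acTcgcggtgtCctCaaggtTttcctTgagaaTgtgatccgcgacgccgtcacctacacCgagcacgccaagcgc
Hist1h4i had a mean of 153 counts although its window was shared. Over its whole transcript 22.4% of the 75-base stretches occur in another gene, and its annotated 3′ UTR reaches up to 376 bases.

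The cluster histone genes were close to the floor of the assay. Together they held 6638 counts over the 6 samples, which was 0.00286% to 0.00422% of the counts on genes in a sample. Of the 65 genes, 5 had no count in any sample, 50 had a mean below 10 counts, these 5 included, 12 lay between 10 and 100, and 3 exceeded 100. The 5 genes at 0 were Hist1h2br, Hist1h4m, Hist2h2aa1, Hist2h2aa2 and Hist2h3c1. For reads that can be assigned to a gene, a count of 0 in a library allows a level of up to 0.0877 to 0.104 CPM. In these 5 genes 87.1% to 100% of the stretches also occur in another gene. Reads that match several genes equally well were not assigned, so this limit does not hold for the level of these 5 genes. Hist1h1c, Hist1h2bc and Hist1h4i were the 3 genes above 100. Per kilobase of exon, Hist1h4i was highest at 6.90 CPM, followed by Hist1h2bc at 5.45, Hist1h1c at 4.86 and Hist3h2ba at 3.47 CPM per kilobase. By the same measure the replication-independent genes H2afz and H3f3b stood at 240 and 220 CPM per kilobase.

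Shared sequence and counts went in opposite directions among the members. The 31 genes in which 50% or more of the 75-base stretches also occur in another gene held 9.4% of all member counts, with a median gene mean of 2.33 counts. The 9 genes with under 10% shared stretches held 33.2% of the counts. Shared stretches had a median of 0.8% per gene for H1, 24.6% for H4, 48.9% for H2B, 59.0% for H3 and 71.6% for H2A. A gene annotated over the same locus, on either strand, also counts as another gene here. Gm20634, for example, covers all 1825 bases of Hist2h3c1, and every H2A gene has such an annotation on the opposite strand. These percentages are therefore not a measure of near-identical copies alone. The 24 genes with an annotated 3′ UTR of 200 bases or more held 80.7% of the counts. Both properties overlap in the same genes, and this is a description across genes that are not independent. The library was a strand-specific mRNA library, and whether poly(A) selection was used is not given in the sources used here. Counts per gene do not separate stem-loop from polyadenylated forms. How far the missing poly(A) tail affects these counts, or the comparison of ICF with control below, was not tested.

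**Figure D1:**
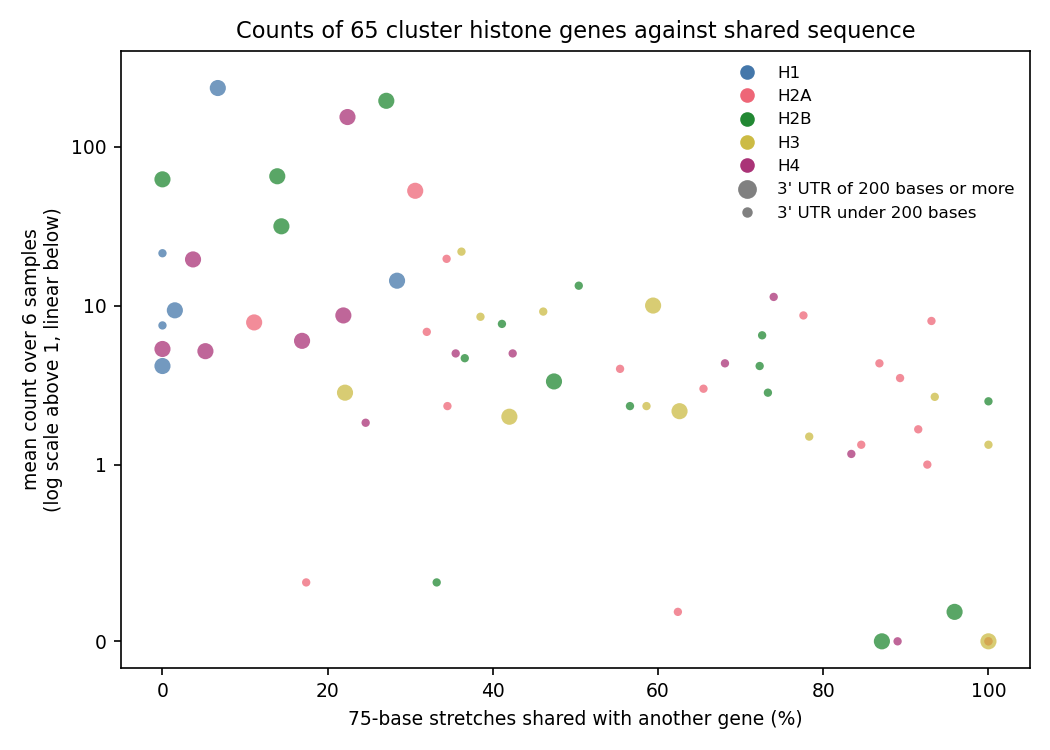
Each point is 1 of the 65 cluster histone genes, with the percent of its 75-base stretches that occur in another gene on the x axis and its mean count over 6 samples on the y axis (log scale above 1, linear below). Colours give the histone type and large points a 3′ UTR of 200 bases or more; the 3 genes above 100 counts all lie under 30% shared stretches and have a long 3′ UTR, and all 31 genes at 50% or more shared lie below 15 counts.

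The study asked how ICF alters gene expression in these cells, and the histone genes were compared between ICF and control in the fit over all genes. Of the 65 members, 17 passed the filter on low counts and were tested, 4 H1, 3 H2A, 5 H2B, 2 H3 and 3 H4. The filter asks for a level of 0.325 CPM in at least 3 samples. Of the 17, 8 reached it in all 6 samples, and the other 9 all reached it in more control than ICF samples, so these 9 were bound to tend lower with ICF and counts over the 17 are given as a description only. None passed a Benjamini-Hochberg adjusted p under 0.05 in edgeR's quasi-likelihood test in either direction, where 3.47% of the 16729 genes tested were called higher and 4.38% lower. The smallest adjusted p of a member was 0.061. At an unadjusted p under 0.05, 10 of the 17 members were lower with ICF and none was higher, against 13.2% of all tested genes that were lower at this level. By the sign of the fold change alone 15 of the 17 members were lower, against 49.6% of all genes. The others, Hist3h2a and Hist1h2be, were above 0 only with ICF replicate 3 included, and each was at -0.14 without it in the fit without a block. The median log2 fold change of the 17 members was -0.53 (range -1.34 to 0.24), and that of all tested genes was 0.00. In 9 of the 17 members every ICF value lay below every control value, which held for 15.7% of all tested genes, and no tested member had all ICF values above. Among the 8 members at the filter level in all samples (Hist1h1c, Hist1h1a, Hist3h2a, Hist1h2bc, Hist3h2ba, Hist2h2be, Hist1h2be and Hist1h4i), 6 were lower and the median was -0.50. With a filter of 1 count in any sample, which admits 60 members, 39 of the 60 were lower, against 53.4% of all genes in that fit, with medians of -0.37 and -0.03. In 10 of the 17 members the ICF sample was lower than the control sample of the same donor number in all 3 donors, against 28.3% of tested genes. By flow cytometry, the paper reports that more cells were in S phase after ICF in serum-free medium. The bulk counts used here measure neither the share of cells in S phase nor the histone RNA per cell. The part of either in the lower values was not tested.

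The call changed when samples of the same donor were paired. With the donor number as a block in edgeR, 6 of the 17 members fell and none rose, against 15.3% of tested genes that fell and 14.6% that rose. These were Hist1h4i, Hist1h2bc, Hist1h1c and Hist3h2ba, which were at the filter level in all samples, and Hist1h3c and Hist1h2bj, which were not. In DESeq2 without a block 2 members fell, Hist1h2bc and Hist1h4i, and none rose, where 7.26% of 14745 genes fell and 5.95% rose, but DESeq2 gave an adjusted p to only 7 members. With the block in DESeq2 only Hist1h4i fell (adjusted p = 0.037), against 11.7% of genes, whereas Hist1h2bc, Hist1h1c and Hist3h2ba did not pass (adjusted p = 0.058, 0.070 and 0.090) and Hist1h3c and Hist1h2bj had no adjusted p. Without ICF replicate 3, 4 of 20 tested members fell in edgeR (Hist1h4i, Hist3h2ba, Hist1h2bc and Hist1h1c), against 4.52% of genes in that fit, and the median log2 fold change was -0.60. With only donors 1 and 2 and the block in edgeR, 6 of 20 members fell, against 14.0% of genes. These were not the same 6, because Hist2h2be passed (adjusted p = 0.0051 by edgeR) and Hist1h2bj did not (0.053).

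**Figure D2:**
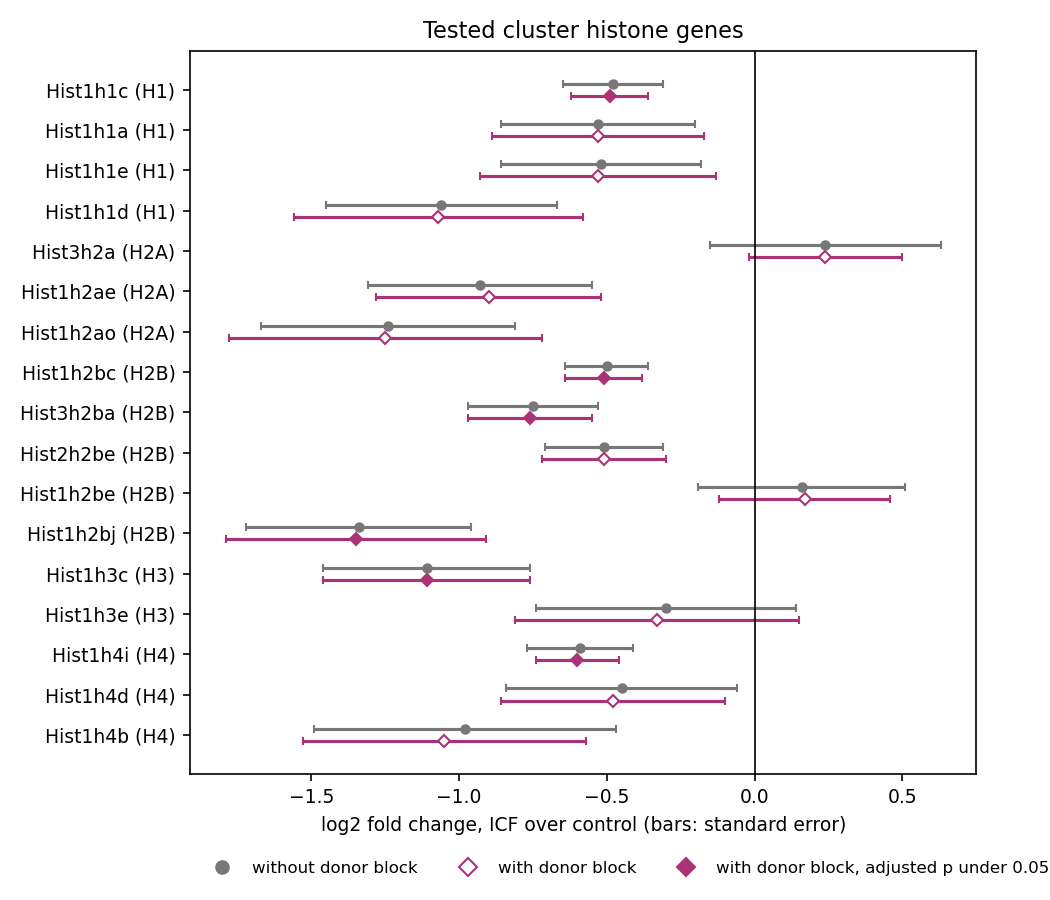
Log2 fold changes of ICF over control for the 17 tested members, from edgeR without the donor block (circles) and with it (diamonds, filled where the adjusted p was under 0.05), with bars of 1 standard error. The 6 filled diamonds lie between -1.35 and -0.49, and Hist3h2a and Hist1h2be lie to the right of 0 in both fits with bars that cross 0.

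H1 linker histones bind the DNA between nucleosomes. Summed over the 6 H1 genes, the level was 10.96 ± 1.22 CPM in the control and 7.87 ± 0.68 CPM with ICF (SD, n = 3), a log2 ratio of -0.48, and the groups did not overlap. Hist1h1c (ENSMUSG00000036181, chr13:23738808-23740367) gave 80.4% of the H1 counts. It had 276, 303 and 212 counts in control replicates 1 to 3 and 210, 178 and 220 with ICF. After normalization the group means were 8.83 ± 1.27 and 6.34 ± 1.13 CPM, ICF replicates 1 and 2 lay below all controls, and replicate 3 lay at 7.59 CPM, just above the lowest control at 7.38 CPM. Its log2 fold change was -0.48 (SE 0.17, adjusted p = 0.11 by edgeR), and with the donor block it was -0.49 (SE 0.13, adjusted p = 0.0046 by edgeR). Without ICF replicate 3 it was -0.62 (adjusted p = 0.038 by edgeR without the block). The other H1 genes had few counts. Hist1h1d had 12, 15 and 10 counts in the control samples and 6, 9 and 4 in the ICF samples, and the groups did not overlap. Its log2 fold change of -1.06 (SE 0.39) did not pass the test (adjusted p = 0.13 by edgeR, 0.095 with the block). Hist1h1a, which shares no stretch with another gene, and Hist1h1e, the most shared H1 gene at 28.4%, had log2 fold changes of -0.53 (SE 0.33) and -0.52 (SE 0.34), which passed in neither fit. The stem-loop letters of Hist1h1c shown above were also present in Hist1h1d and Hist1h1e.

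H2A wraps DNA in the core together with H2B, and it had the smallest log2 ratio of the types, although differences between types were not tested. Its 18 genes summed to 4.24 ± 0.61 CPM in the control and 3.92 ± 1.04 CPM with ICF, a log2 ratio of -0.12, and the groups overlapped. Without ICF replicate 3 the ratio was -0.35, and without Hist3h2a it was -0.39. Hist3h2a (chr11:58954685-58956830) gave 42.0% of the H2A counts, and over all samples its log2 fold change was above 0, unlike those of the other tested H2A genes. It had 25, 65 and 50 counts in the control samples and 58, 38 and 80 in the ICF samples, with a log2 fold change of 0.24 (SE 0.39, adjusted p = 0.74 by edgeR), so the spread within each group exceeded the difference. Without ICF replicate 3 the log2 fold change was -0.14 (adjusted p = 0.85 by edgeR without the block). On donors 1 and 2 alone with the block it was -0.04 (adjusted p = 0.93 by edgeR). Trim17 overlaps Hist3h2a on the same strand in the annotation, and reads in the overlap cannot be told apart by position. Hist1h2ae had 22, 19 and 34 counts in the control samples and 16, 19 and 8 in the ICF samples. After scaling to library size the groups did not overlap, and the log2 fold change was -0.93 (SE 0.38, adjusted p = 0.16 by edgeR, 0.069 with the block). Hist1h2ao, in which 93.1% of the stretches are shared, had 10, 11 and 12 counts in the control samples and 8, 3 and 4 in the ICF samples. The log2 fold change was -1.24 (SE 0.43, adjusted p = 0.12 by edgeR, 0.073 with the block). The other named H2A genes had too few counts for the test. Hist1h2ag had 6 to 12 counts in the control and 5 to 12 with ICF, and Hist1h2ac, the least shared H2A gene at 11.1%, had 5, 5 and 6 in the control samples and 4, 7 and 20 in the ICF samples.

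H2B pairs with H2A in the nucleosome, and its genes held more counts than those of any other type. The 16 H2B genes summed to 15.28 ± 0.81 CPM in the control and 10.8 ± 1.41 CPM with ICF, a log2 ratio of -0.50, with no overlap between the groups. Hist1h2bc (ENSMUSG00000018102, chr13:23684199-23692908) gave 48.4% of these counts. It had 233, 242 and 186 counts in the control samples and 168, 166 and 168 in the ICF samples, and every ICF sample lay below every control sample. The means were 7.39 ± 0.81 and 5.22 ± 0.51 CPM. Its log2 fold change was -0.50 (SE 0.14, adjusted p = 0.061 by edgeR), and with the block it was -0.51 (SE 0.13, adjusted p = 0.0032 by edgeR). DESeq2 gave an adjusted p of 0.028 without a block and 0.058 with it.
Hist3h2ba (ENSMUSG00000056895, chr11:58948920-58949533) had 85, 79 and 74 counts in the control samples and 49, 43 and 60 in the ICF samples. The groups did not overlap, at 2.67 ± 0.21 and 1.59 ± 0.42 CPM. Its log2 fold change was -0.75 (SE 0.22, adjusted p = 0.070 by edgeR) and with the block -0.76 (SE 0.21, adjusted p = 0.0053 by edgeR). Apart from a pseudogene, Hist3h2bb-ps, with which it shares 13.9% of its stretches, no other gene holds a stretch of it.
Hist2h2be (chr3:96221119-96223738) shares no stretch with the annotated transcripts of any other gene. It had 82, 75 and 55 counts in the control samples and 59, 50 and 52 in the ICF samples. The groups did not overlap after scaling, at 2.37 ± 0.45 and 1.67 ± 0.14 CPM, and the log2 fold change of -0.51 (SE 0.20) did not pass the test (adjusted p = 0.16 by edgeR, 0.069 with the block). On donors 1 and 2 alone with the block, the log2 fold change was -0.69 (adjusted p = 0.0051 by edgeR). Hist1h2be had 19, 29 and 38 counts in the control samples and 29, 30 and 44 in the ICF samples, a log2 fold change of 0.16 (SE 0.35, adjusted p = 0.81 by edgeR). Without ICF replicate 3 its log2 fold change was -0.14 (adjusted p = 0.82 by edgeR without the block), and on donors 1 and 2 alone with the block 0.15. Its transcripts overlap Hist1h1e and Gm11398 on the same strand. Hist1h2bj, named after its values were seen, had 21, 16 and 19 counts in the control samples and 9, 11 and 4 in the ICF samples. The log2 fold change was -1.34 (SE 0.38, adjusted p = 0.066 by edgeR), and -1.35 with the block (SE 0.44, adjusted p = 0.018 by edgeR). Without ICF replicate 3 it was -1.07 (adjusted p = 0.091 by edgeR without the block). On donors 1 and 2 alone with the block it was -1.04 (adjusted p = 0.053 by edgeR). Hist2h2bb, all of whose stretches are shared, had 1 to 5 counts per sample. Gm20628 overlaps it on the opposite strand over 381 bases.

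**Figure D3:**
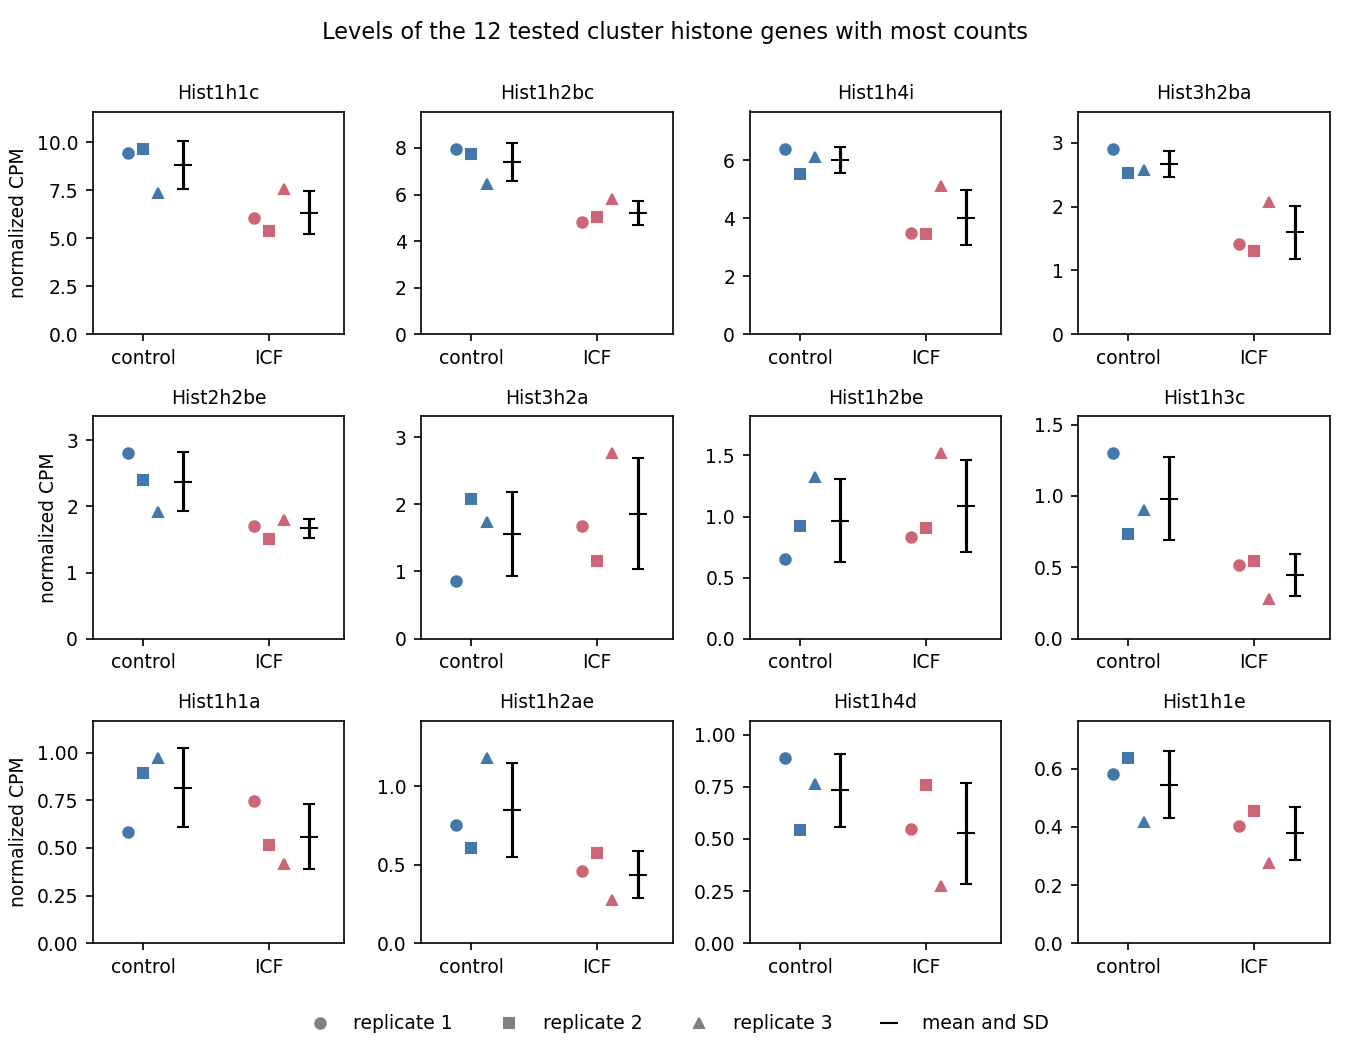
Normalized CPM of the 12 tested members with most counts in the 3 control and 3 ICF samples, with marker shapes for the replicates and a bar for the group mean and SD, on axes that begin at 0. ICF values lie below all control values for Hist1h2bc, Hist1h4i, Hist3h2ba, Hist2h2be, Hist1h3c and Hist1h2ae, and overlap with the control for the other 6.

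H3 forms the central tetramer of the nucleosome together with H4. The 12 H3 genes summed to 2.38 ± 0.46 CPM in the control and 1.80 ± 0.43 CPM with ICF, a log2 ratio of -0.40, and the groups overlapped because ICF replicate 2 lay at 2.30 CPM. Hist1h3c (ENSMUSG00000069310, chr13:23744973-23745602) gave 33.9% of the counts, and without it the log2 ratio was -0.04. It had 38, 23 and 26 counts in the control samples and 18, 18 and 8 in the ICF samples, with no overlap between the groups. For this gene the log2 fold change was -1.11 (SE 0.35, adjusted p = 0.089 by edgeR), and with the block it was also -1.11 (SE 0.35, adjusted p = 0.015 by edgeR). Without ICF replicate 3 it was -0.87 (adjusted p = 0.13 by edgeR without the block). On donors 1 and 2 alone with the block it was -0.92 (adjusted p = 0.024 by edgeR). Hist1h3e had 10, 11 and 11 counts in the control samples and 5, 15 and 8 in the ICF samples, a log2 fold change of -0.30 (SE 0.44, adjusted p = 0.72 by edgeR). The untested Hist1h3g and Hist1h3a went to 9 to 11 and 3 to 8 counts in the control and to 2 to 16 and 8 to 13 counts with ICF. Hist1h3d, the least shared H3 gene, had 0 to 6 counts per sample, and the fully shared Hist2h3b had 0 to 3.

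The 13 H4 genes summed to 8.53 ± 0.94 CPM in the control and 6.27 ± 1.15 CPM with ICF, a log2 ratio of -0.44. ICF replicate 3 at 7.59 CPM lay above control replicate 2 at 7.44 CPM, and without ICF replicate 3 the ratio was -0.61. Hist1h4i (ENSMUSG00000060639, chr13:22040636-22041362) gave 67.6% of the H4 counts, and the ratio over the other 12 genes was -0.16. It had 187, 173 and 176 counts in the control samples and 121, 114 and 148 in the ICF samples, and the groups did not overlap, at 6.02 ± 0.45 and 4.01 ± 0.95 CPM. Its log2 fold change was -0.59 (SE 0.18, adjusted p = 0.080 by edgeR), and with the block it was -0.60 (SE 0.14, adjusted p = 0.0015 by edgeR), the smallest of all members. DESeq2 gave an adjusted p of 0.034 without a block and 0.037 with it. Hist1h4d had 26, 17 and 22 counts in the control samples and 19, 25 and 8 in the ICF samples, and Hist1h4b had 15, 15 and 14 in the control samples and 4, 16 and 4 in the ICF samples. Their log2 fold changes of -0.45 (SE 0.39) and -0.98 (SE 0.51) did not pass in either fit, and the groups overlapped. The untested Hist1h4j and Hist2h4 had 4 to 14 and 2 to 7 counts in the control and 5 to 12 and 4 to 8 with ICF.

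**Figure D4:**
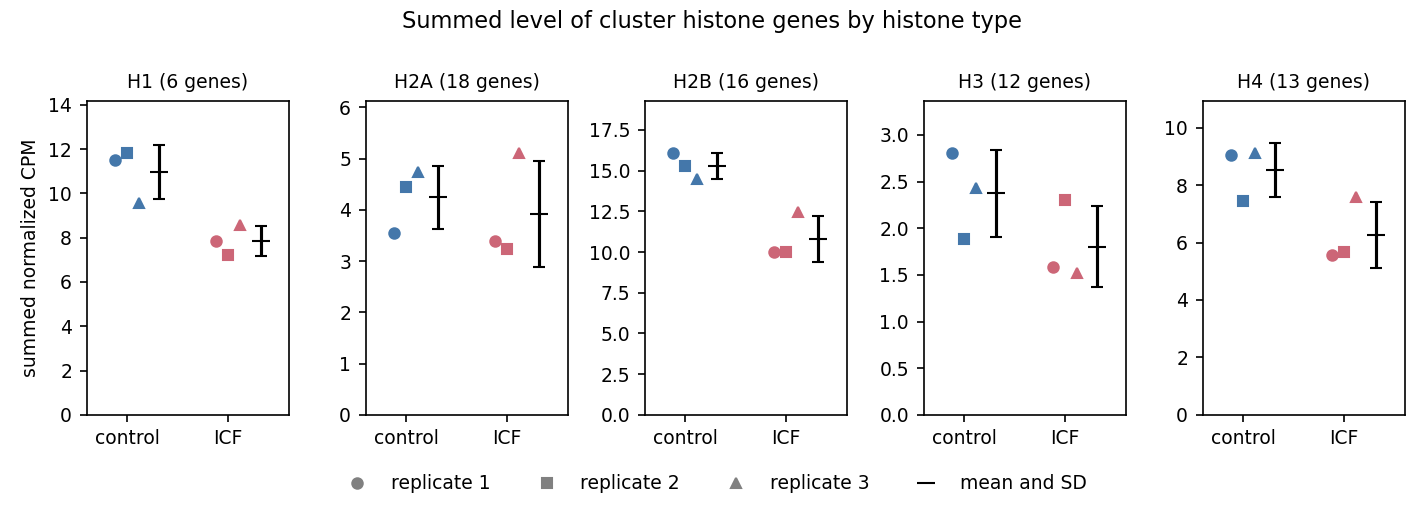
Summed normalized CPM of all members of each histone type in the 3 control and 3 ICF samples, with marker shapes for the replicates and a bar for the group mean and SD, on axes that begin at 0. The groups do not overlap for H1 and H2B, and for H2A, H3 and H4 at least 1 ICF sample lies above a control sample.

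Over all 65 genes the summed level was 43.0, 40.9 and 40.3 CPM in control replicates 1 to 3 and 28.4, 28.4 and 35.2 CPM with ICF. The log2 ratio of the means was -0.43, and within donors 1 to 3 it was -0.60, -0.53 and -0.20, so donor 3, which holds the library with counts in steps of 4, had the smallest difference. The 17 tested members summed to 35.99 ± 1.75 CPM in the control and 25.26 ± 3.24 CPM with ICF, and the 48 untested members to 5.40 ± 0.92 and 5.39 ± 0.74 CPM. Because 9 of the 17 had passed the filter in more control than ICF samples, the filter itself moves both sums, and nothing is read from the contrast between them. Over sets formed from all members by shared sequence, the log2 ratio was -0.48 for the 9 genes with under 10% shared stretches, -0.39 for the 25 genes with 10% to 50% and -0.52 for the 31 genes with 50% or more, and in each of these sets all ICF sums lay below all control sums. Hist1h1c gave 1399 of the 2206 counts of the first set. Hist1h2bc and Hist1h4i gave 1163 and 919 of the 3806 counts of the second, and Hist1h2bj gave 80 of the 626 counts of the third.

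Promoters of histone genes are known for a few short elements, among them an octamer in H2B genes. In the RefSeq promoters of GRCm38.p6, which reach from 250 bases before to 50 bases after the start, 59 members had an entry. TATAAA was present on either strand in 59.3% of them, against 15.7% of all 27025 promoters. CCAAT was present in 84.7%, against 41.1% of all promoters, and the H4 genes were the exception, with 25.0%, where all other types had it in 100% of their promoters. ATTTGCAT was found in 41.2% of H2A and 42.9% of H2B promoters, in no promoter of the other types and in 1.97% of all promoters. The 120 bases before the start are shown for members that fell with the donor block and that differ in these letters, with these 3 motifs on either strand in capitals.
Hist3h2ba, chr11:58948791-58948910, plus strand: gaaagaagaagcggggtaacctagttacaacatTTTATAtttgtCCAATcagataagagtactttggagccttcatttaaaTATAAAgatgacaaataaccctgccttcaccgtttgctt
Hist1h3c, chr13:23745522-23745641, minus strand: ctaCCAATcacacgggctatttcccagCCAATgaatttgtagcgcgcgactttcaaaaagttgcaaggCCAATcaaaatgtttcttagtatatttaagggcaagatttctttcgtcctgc
Hist1h4i, chr13:22041363-22041482, minus strand: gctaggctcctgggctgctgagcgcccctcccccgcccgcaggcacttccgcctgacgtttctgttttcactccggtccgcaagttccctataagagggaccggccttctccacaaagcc
The Hist1h4i promoter held none of the 3 motifs in this stretch. A link between these motifs and the fold changes was not tested. A match is a description of letters, and binding was not measured.

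The genes that transcribe, cut and degrade histone mRNAs did not pass the test. All 15 genes of this list that matched were tested, and 0 rose and 0 fell in edgeR without the block, with the block and in DESeq2. Of all genes, 3.47%, 14.6% and 5.95% rose in these fits and 4.38%, 15.3% and 7.26% fell. At the shares without the block, a count of 0 among 15 genes says little. At an unadjusted p under 0.05 in edgeR without the block there were also 0, where 13.2% of all genes were lower at this level. Their log2 fold changes ranged from -0.13 to 0.16 with a median of 0.04. Slbp, the stem-loop binding protein, had 3316, 3525 and 3477 counts in the control samples and 3904, 3864 and 3429 in the ICF samples. Its level was 115.7 ± 4.60 and 115.9 ± 3.12 CPM, a log2 fold change of 0.00 (SE 0.06, adjusted p = 0.98 by edgeR). Npat, the activator of histone gene transcription at S phase entry, had a log2 fold change of 0.01 (SE 0.09, adjusted p = 0.94 by edgeR).

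Histone chaperones carry histones to DNA. Of 20 genes tested, 1 rose and 1 fell without the block, where 3.47% of all genes rose and 4.38% fell. Asf1a, which hands H3 and H4 to the assembly factors, rose from 65.1 ± 0.69 to 79.1 ± 3.62 CPM (log2 fold change 0.28, SE 0.06, adjusted p = 0.027 by edgeR). Hjurp, the chaperone of the centromeric H3, fell from 300.7 ± 4.65 to 258 ± 5.21 CPM (log2 fold change -0.22, SE 0.05, adjusted p = 0.040 by edgeR). Neither call was stable to leaving out a sample. Asf1a lost its call without ICF replicate 1 or 2 or control replicate 1 or 2 (adjusted p = 0.092 to 0.14 by edgeR), and Hjurp lost it when any 1 of the 6 samples was left out (0.056 to 0.15). With the block 7 rose and 1 fell, where 14.6% of all genes rose and 15.3% fell.

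Some replication-independent histone genes fell as well. Of 11 tested, 3 fell and 0 rose without the block and 5 fell with it, against 4.38% and 15.3% of all genes. A negative log2 fold change was found in 10 of the 11 (median -0.12), against 49.6% of all genes. H1f0, a linker histone of slowly dividing and differentiated cells, had 4551, 5208 and 4196 counts in the control samples and 3210, 3062 and 2632 in the ICF samples. It fell from 156 ± 10.2 to 92.0 ± 0.98 CPM (log2 fold change -0.76, SE 0.06, adjusted p = 0.0006 by edgeR), with no overlap. H2afx, the variant phosphorylated at DNA breaks, had 7594, 7084 and 5540 counts in the control samples and 5129, 5049 and 4204 in the ICF samples, and fell by 0.61 on the log2 scale (SE 0.10, adjusted p = 0.0096 by edgeR). H2afx is also known to give a stem-loop mRNA beside a polyadenylated one. Cenpa, the centromeric H3, had a log2 fold change of -0.23 (SE 0.06, adjusted p = 0.048 by edgeR). Cenpa lost its call when any 1 sample other than control replicate 3 was left out (adjusted p = 0.074 to 0.19 by edgeR), and H2afx lost it without control replicate 2 (adjusted p = 0.055). The 2 further genes that fell with the block, named after their values were seen, were H1fx at -0.82 and H2afy at -0.35 (adjusted p = 3.6e-12 and 1.3e-06 by edgeR with the block). H3f3a and H3f3b, which encode H3.3, had log2 fold changes of 0.00 (SE 0.05) and -0.02 (SE 0.06). H2afz, the most highly expressed per kilobase of those named here, had -0.06 (SE 0.08), so that the lower values were not shared by all histone genes.

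None of 24 genes of an S phase list passed the test in edgeR without the block, and the median log2 fold change of the list was 0.08 (range -0.12 to 0.36). At an unadjusted p under 0.05 there were 4, Cdc6, Prim1, Rrm2 and Ccne2, all higher with ICF. The share of all genes that were higher at this level was not worked out, so this count is a description only. With the block 5 of the 24 rose, near the 14.6% of all genes that rose, and 0 fell, where 15.3% of all genes fell. In DESeq2 2 rose, near the 5.95% of all genes, and 0 fell, where 7.26% of all genes fell. The summed level of the list was 5280 to 5681 CPM in the control and 5616 to 5846 CPM with ICF. The difference between this list and the cluster histone genes was not tested.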

How the data were processed

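Total RNA was sequenced from 3 ICF and 3 control samples as single-end reads of 75 bases from a strand-specific mRNA library. The authors deposited whole-number counts per Ensembl gene and sample. Per the labels these came from bcl2fastq 2.19, FastQC, Trimmomatic, HISAT2, HTSeq and DESeq2, and the labels list GRCm38 and hg38 as builds; tool versions, the annotation release and the strand setting of HTSeq are not given in the sources used here. HTSeq's special rows (reads without a gene, ambiguous, not aligned or not unique), 38.1% to 40.3% of each file's total, were left out.

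Members and gene lists were chosen with earlier results of these data known. Identifiers were matched to GENCODE M21 (50462 of 50686). Counts of all genes were fitted in R 4.3.3 with edgeR 4.0.16 (TMM normalization, default filter on low counts, quasi-likelihood test, Benjamini-Hochberg adjustment over 16729 genes, threshold 0.05, no block), after a test on simulated data. Standard errors are those implied by the F statistic. CPM values are TMM-scaled, and sums over members carry no test. For samples with the same donor number, deviations from the group means correlated at r = 0.15, 0.2 and 0.38 across genes. Other pairs had -0.34 to 0.26, with 0.26 for control replicate 1 and ICF replicate 2. Only the donor 3 pair thus exceeded all pairs of unlike donors, and pairing of donors 1 and 2 was not apparent. Fits with the donor number as a block are given where they change a call. DESeq2 1.42.0 was an alternative, as were other size factors, filters, offsets for GC content and exon length, ICF replicate 3 divided by 4, and each sample left out. Only the block fit on donors 1 and 2 was added after seeing the data.

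Shared sequence is the percent of a gene's 75-base stretches that occur, on either strand, in GENCODE M21 transcripts of another gene, since no genome sequence was used here. Genes annotated over the same locus are included. Named genes were the 4 members with most counts per type, the most and least shared member per type, members past the threshold, Slbp, Npat, and genes of the processing, chaperone and replication-independent lists past the threshold. The processing list matched 15 of 16 symbols. With 3 samples against 3, an exact permutation test of a single value cannot give a p below 0.1, and none is reported.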

Additional observations from a re-analysis of the deposited data

How the results depend on the processing

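The number of members that fell was 0 in edgeR without a block, 2 in DESeq2, 3 with the counts of ICF replicate 3 divided by 4, 2 with a filter of 1 count in any sample (where 3.43% of all genes fell), 1 with the replicate block in DESeq2, 6 with the replicate block in edgeR, 6 with the replicate block and offsets for GC content and length, and 6 with the replicate block on donors 1 and 2 alone. Leaving out each sample gave 0 to 4, with 4 without ICF replicate 3 and 1 without control replicate 3 (Hist1h2bc). The number that rose was 0 in all of these. Of all genes, 4.38% fell in edgeR without a block and 15.3% with it. In DESeq2 7.26% fell without a block and 11.7% with it. On donors 1 and 2 alone 14.0% fell, and 4.52% without ICF replicate 3. No such share was worked out for the divided counts, the offsets or the other left-out samples. Counts in those fits, here and for the lists below, are a description only. The median log2 fold change of tested members was -0.53 over 17 members. It was -0.40 in DESeq2 and -0.37 with the filter of 1 count, each over 60 members, and -0.68 on donors 1 and 2 alone over 20. With each sample left out it lay between -0.60 and -0.46 over 19 to 21 members. These medians are thus over unlike sets of members. Histone processing genes past the threshold were 0, and 2 with the replicate block and GC and length offsets. Replication-independent histone genes past the threshold were 3, 5 with the replicate block in edgeR, in DESeq2, with the offsets and on donors 1 and 2 alone, and 1 to 5 with each sample left out, with 1 without control replicate 2 and 5 without control replicate 3. The summed H4 ratio was -0.44, and -0.16 without Hist1h4i. No sum for H2A or H3 could be formed from genes with under 10% shared stretches. Asf1a, Hjurp and Cenpa lost their calls in most fits with 1 sample left out, and Asf1a also with GC and length offsets without the block (adjusted p = 0.14 by edgeR). At this depth 48 of the 65 members could not be tested.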

Other observations

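Genes of the same names that are annotated as pseudogenes were counted as well and belong to no comparison above. Hist1h2al had 4, 4 and 6 counts in control replicates 1 to 3 and 7, 6 and 4 with ICF. Hist1h2aj had 0, 1 and 0 counts in the control and 2, 0 and 0 with ICF, and Hist3h2bb-ps had 0, 1 and 1 and then 0 throughout. The most counted of them thus lay in the range of the untested members.

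The 42 members with a stem-loop of the searched form held 69.5% of the member counts and the 23 without it held 30.5%. Their summed levels were 28.8 ± 0.47 and 12.6 ± 1.02 CPM in the control and 21.3 ± 3.41 and 9.32 ± 0.57 CPM with ICF (SD, n = 3), and both sets had a log2 ratio of -0.43. A few genes carry these sums. Hist1h1c and Hist1h4i gave 1399 and 919 of the 4616 counts with the stem-loop. Without it, Hist1h2bc and Hist2h2be gave 1163 and 373 of the 2022 counts. Cluster 1 had a log2 ratio of -0.45 over 52 genes, with no overlap between the groups. Clusters 2 to 4 had -0.38 over 13 genes, and their groups overlapped. The 34 members with a mean under 5 counts were at 2.27 ± 0.28 and 2.14 ± 0.38 CPM, a log2 ratio of -0.09.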
